A study of Saccharomyces cerevisiae with 91 samples.

Results

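Wild-type chromatin of budding yeast was cut with micrococcal nuclease (MNase) and separated by fragment size, and the read pairs recovered from each size fraction were compared. The 8 libraries described here come from 2 relative MNase amounts, 0.25X and 1X, with a Dimer, a Tri-Tetra, a Monomer and a Small fraction at each, and they are 8 of 91 samples in the series. They were chosen by their labels. Dimer and Tri-Tetra (the long fractions) were set against Monomer and Small (the short fractions) within each amount, so that the contrast lies between fractions and not between amounts. All 8 libraries share their strain and handling. Per the labels, BY4741 was grown in YPD at 30 °C to mid-log phase, crosslinked in 3% formaldehyde (15 min), and its trimmed chromatin ends were ligated before purification of DNA. The same protocol text is given for all 16 MNase samples, and it names a gel cut of about 250 to 350 bp. It also names a level of more than 95% mononucleosomes. The labels do not say how the fractions were separated or what 1X is in enzyme units. For scale, values are set beside 16 wild-type columns of the standard protocol at 30 °C, 1 library made without crosslinking and 1 made without ligation.

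MNase cuts the linker DNA between nucleosomes before it trims into the DNA wrapped on the histone core, so light digestion leaves short arrays of nucleosomes and heavy digestion leaves mononucleosomes and smaller pieces. In Micro-C, crosslinked nucleosomes that lie close together are joined by ligation, and a read pair from the joined DNA reports the distance between them. Nucleosome-depleted regions (NDRs) are the open stretches found mostly at promoters, and a pair that spans one joins chromatin on its sides. Genes of transfer RNA (tRNA) and ribosomal RNA (rRNA) are transcribed at very high rates in growing yeast.

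The deposited distance tables count read pairs by orientation. IN-IN pairs face inward, as do the ends of any uncut piece of DNA. IN-OUT and OUT-IN pairs run in the same direction, which needs a ligation, and are here summed as same-direction pairs. OUT-OUT pairs point away from each other. Pairs listed up to 10000 bp numbered 6448976 and 3925509 in Dimer at 0.25X and 1X, and 5988171 and 2765317 in Tri-Tetra. The short fractions held 11271163 and 11127594 pairs in Monomer, and 13556162 and 13030637 in Small. At this depth the 95% Wilson interval of the IN-IN share reached at most 0.0423 percentage points to either side in these libraries, which covers counting error only. The labels do not say whether the libraries came from separate cultures, so the spread between them may be technical.

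The distances of IN-IN pairs matched the fraction labels for Monomer and Small, and matched them in part for Dimer and Tri-Tetra. Distances of 100 to 200 bp (windows here leave out their lower bound), the size of 1 nucleosome, made up 93.7% and 92.5% of IN-IN pairs in Monomer at 0.25X and 1X. In Small, 64.6% and 73.6% lay at 50 to 100 bp, and a further 13.9% and 11.4% at 50 bp or less. In Dimer, 52.0% and 30.5% lay at 200 to 350 bp, the size of 2 nucleosomes, against 0.737% and 0.0527% in Monomer and 1.15% and 0.413% in Small. Yet the most frequent IN-IN distance of Dimer was 138 bp at 0.25X and 132 bp at 1X, and 41.7% and 64.4% of its IN-IN pairs lay at 100 to 200 bp. Tri-Tetra was likewise led by a distance of 147 bp at both amounts, with 53.3% and 59.8% of its IN-IN pairs at 100 to 200 bp. Its distances of 350 to 500 bp reached 12.0% and 5.74%, against 1.27% and 0.606% in Dimer. The long fractions are therefore named here by their labels, although the most frequent single distance was that of 1 nucleosome in each of them.

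**Figure D1:**
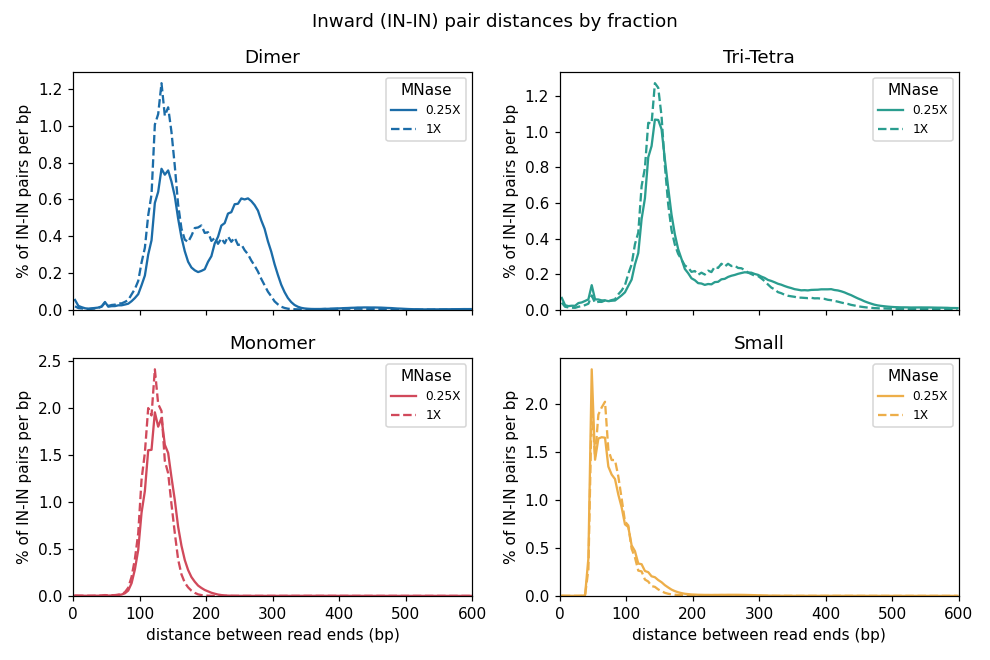
Distance of inward (IN-IN) pairs in bp (x axis) against the percentage of a library's IN-IN pairs per bp (y axis), in 5 bp bins, with 0.25X as solid and 1X as dashed lines. Monomer forms 1 hump and Small has its maxima below 100 bp, while Dimer carries a second hump at 200 to 350 bp that holds 52.0% of IN-IN pairs at 0.25X and 30.5% at 1X.

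Ligated pairs were far more frequent in the long fractions. Same-direction pairs made up 9.68% of listed pairs in Dimer at 0.25X and 5.70% at 1X. They made up 12.7% and 8.76% in Tri-Tetra. In Monomer the shares were 0.917% and 0.499%, and in Small 0.524% and 0.236%. Every long library lay above every short one at both amounts, and at each amount the order was Tri-Tetra, Dimer, Monomer and Small. Averaged over the amounts, the long fractions exceeded the short ones by 8.68 percentage points (exact two-sided permutation of fraction class within MNase amount, p = 0.0556, Benjamini-Hochberg adjusted p = 0.0641 over 15 tests). That p is the smallest that 36 arrangements allow, so no value of this kind could pass 0.05. Each class holds the same fractions at both amounts, which the permutation does not take into account. How far the size cut alone sets these shares was not tested. The gap between classes was 10.5 points at 0.25X and 6.86 points at 1X.

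The wild-type libraries of the standard protocol held 9.90% ± 3.17 same-direction pairs (SD, n = 16, range 5.95% to 16.2%). Tri-Tetra lay inside that range at both amounts, Dimer inside it at 0.25X and below it at 1X, and Monomer and Small below it at both. The library without crosslinking held 0.596% same-direction pairs and the library without ligation 0.00638%. Monomer at 1X and Small at both amounts thus had a lower share than the library without crosslinking, and all 8 fraction libraries exceeded the library without ligation.

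**Figure D2:**
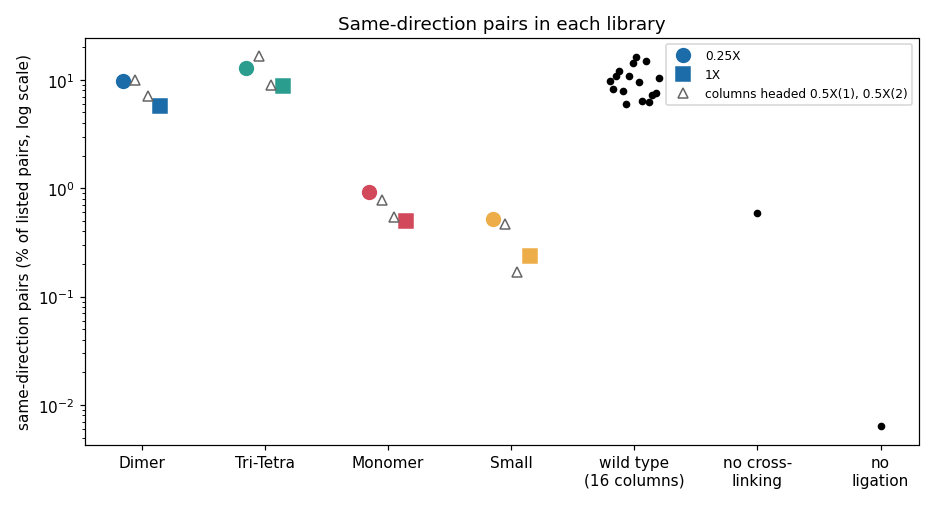
Same-direction (IN-OUT plus OUT-IN) pairs as a percentage of listed pairs (log scale) in each fraction at 0.25X (circles) and 1X (squares), in 8 further MNase columns (open triangles), in 16 wild-type columns and in the libraries without crosslinking and without ligation. Long fractions lie between 5.70% and 12.7% at 0.25X and 1X, and short fractions between 0.236% and 0.917%.

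OUT-OUT pairs followed the same order and IN-IN pairs the reverse. OUT-OUT pairs made up 9.27% and 3.87% of listed pairs in Dimer and 10.9% and 6.45% in Tri-Tetra, against 0.755% and 0.347% in Monomer and 0.479% and 0.187% in Small. IN-IN pairs took the remainder, at 81.0% and 90.4% in Dimer and 76.4% and 84.8% in Tri-Tetra, against 98.3% and 99.2% in Monomer and 99.0% and 99.6% in Small. Both orientations separated the classes at both amounts, with exact permutation p = 0.0556 each, the smallest possible. IN-OUT and OUT-IN were near equal in every library, for example 4.80% and 4.89% in Dimer at 0.25X, and 0.452% and 0.465% in Monomer at 0.25X.

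Beyond 500 bp the orientation shares of Dimer, Monomer and Small lay nearer each other than over all pairs. Every library kept more IN-IN than OUT-OUT pairs, and the gap was widest in Tri-Tetra. IN-IN pairs then made up 28.2% at both amounts in Dimer and 35.2% and 33.1% in Tri-Tetra, against 26.0% and 26.2% in Monomer and 27.3% and 26.9% in Small. OUT-OUT pairs made up 22.2% and 22.4% in Dimer and 19.0% and 19.8% in Tri-Tetra, against 23.9% and 23.7% in Monomer and 23.2% at both amounts in Small. The long-minus-short gap in same-direction share turned to -1.92 percentage points among these pairs (exact permutation within MNase amount, p = 0.111). Beyond 1000 bp, the IN-IN share of all 8 libraries lay between 25.4% and 27.1%. The excess of same-direction pairs in the long fractions is therefore a statement about all listed pairs, most of which are short IN-IN pairs.

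Same-direction pairs formed a nucleosome ladder in Dimer, Tri-Tetra and Small, and a shallower one with a shifted fitted crest in Monomer. Fitted as a wave of the mean wild-type period of 169 bp over 200 to 1000 bp, a description added after the profiles had been seen, the first crest past 100 bp fell at 166 bp in Dimer at both amounts. It fell at 156 and 159 bp in Tri-Tetra at 0.25X and 1X, at 226 and 205 bp in Monomer, and at 167 and 172 bp in Small. Wild type gave 166 ± 1.44 bp (SD, n = 16, range 162 to 169 bp). The fitted crest of Monomer lay beyond every wild-type column at both amounts, and that of Tri-Tetra lay below every one. Both Dimer libraries and Small at 0.25X lay inside the wild-type range, and Small at 1X above it. The fit starts at 200 bp, so these first crests are extrapolated from the later rungs. In the 10 bp bins, Small at both amounts and Tri-Tetra at 1X had a local maximum at 155.5 bp. Tri-Tetra at 0.25X had one at 165.5 bp, so the bins did not show the fitted order of Tri-Tetra and Small. The profile of Monomer at 1X had local maxima in the 10 bp bins centred at 155.5, 225.5 and 305.5 bp. A single wave cannot follow all of these, so the shift of Monomer at 1X describes the fit.

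The height of the wave, as log2 of crest over trough, was 1.04 and 0.80 in Dimer and 0.89 and 0.82 in Tri-Tetra, against 0.36 and 0.40 in Monomer and 0.63 and 0.64 in Small. Wild-type heights ran from 0.77 to 1.52 on the same scale. The long fractions thus lay inside the wild-type range at both amounts and the short fractions below it. When the period was fitted too, it came to 169.5 and 168.5 bp in Dimer, 168.5 and 170.0 bp in Tri-Tetra, 174.5 and 169.0 bp in Monomer and 174.0 and 171.5 bp in Small, against 169 ± 1.22 bp in wild type (SD, n = 16). The fitted shift of Monomer appeared in each same-direction orientation, at 229 and 212 bp in IN-OUT pairs and at 224 and 199 bp in OUT-IN pairs. OUT-OUT pairs of Monomer also had their crest elsewhere, at 119 and 131 bp, against 222 and 246 bp in Dimer, 223 and 237 bp in Tri-Tetra and 225 and 195 bp in Small.

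**Figure D3:**
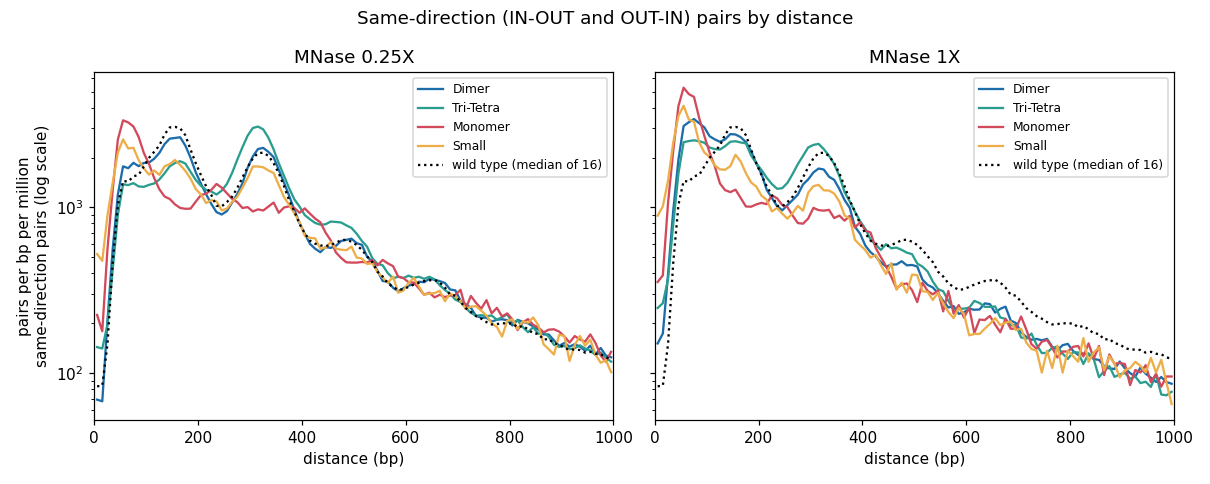
Same-direction pairs per bp, scaled to each library's same-direction total (log scale), against distance in bp, at 0.25X (left) and 1X (right), in 10 bp bins, with the median of 16 wild-type columns dotted. Dimer has a local maximum at 165.5 bp at 0.25X and at 145.5 bp at 1X, and Tri-Tetra at 165.5 and 155.5 bp. Small has one at 155.5 bp at both amounts, and the crests of all 3 fractions repeat farther out. The Monomer line is flatter, with local maxima at 235.5 bp at 0.25X and at 155.5, 225.5 and 305.5 bp at 1X.

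Peaks read from fixed windows of the IN-OUT profile gave less. The second peak was the only one found in all 8 libraries. It lay at 322 and 314 bp in Dimer and 317 and 314 bp in Tri-Tetra, against 262 and 317 bp in Monomer and 314 and 319 bp in Small. The classes differed by 31.5 bp at 0.25X and by -4.0 bp at 1X, for a mean of 13.75 bp (exact permutation within MNase amount, p = 0.667). The 262 bp of Monomer at 0.25X lies next to the lower edge of the window, at 260 bp, and without that library the mean difference was 0.75 bp. The first peak was found in 5 libraries and the third in 6. At the third, 4 of those 6 positions were 421 or 422 bp, at the lower edge of the window, so these peaks, spacing and trough depth were not compared.

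Scaled to each library's own same-direction pairs, the long fractions were on average enriched for distances of 1 and 2 nucleosomes. The short fractions were enriched for the shortest and the longest distances. At 300 to 340 bp, the long fractions exceeded the short ones by 0.96 at 0.25X and 0.78 at 1X on the log2 scale, and at 140 to 180 bp by 0.67 and 0.81. At up to 50 bp the difference was -1.40 and -1.34, and at 5000 to 10000 bp it was -0.92 and -1.12. Between the crests, at 220 to 260 bp, it was only -0.07 and 0.23. The long fractions also differed between themselves here. Dimer over Tri-Tetra was 0.47 and 0.11 at 140 to 180 bp but -0.66 and -0.59 at 260 to 300 bp, so the rise toward the second rung of the ladder held more pairs in Tri-Tetra.

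**Figure D4:**
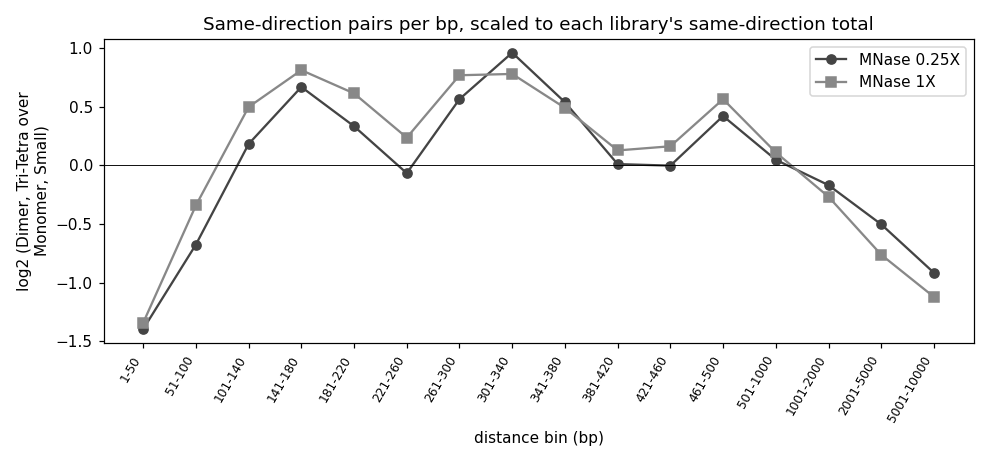
Mean log2 ratio of same-direction pairs per bp, Dimer and Tri-Tetra over Monomer and Small, for 16 distance bins at 0.25X (circles) and 1X (squares). The ratio peaks at 140 to 180 and 300 to 340 bp, lies nearer 0 between the crests, and is -0.92 and -1.12 at 5000 to 10000 bp.

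A reach ratio sets same-direction pairs of 500 to 1000 bp against those of 100 to 500 bp, as a log2 value. It was lower in the long fractions at both amounts. It was -2.10 and -2.59 in Dimer and -2.16 and -2.76 in Tri-Tetra, against -1.58 and -2.09 in Monomer and -1.93 and -2.35 in Small. The classes did not overlap within either amount, with a mean difference of -0.42 (exact permutation within MNase amount, p = 0.0556, the smallest possible). Wild type gave -2.24 ± 0.26 (SD, n = 16, range -2.85 to -1.81), so Monomer at 0.25X alone lay outside the wild-type range. The difference came to -0.10 when OUT-OUT pairs alone were counted (exact permutation p = 0.5). With all 4 orientations it turned to 3.31, where IN-IN pairs make up most of the lower window.

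From 1000 to 10000 bp, contacts fell off more steeply in the long fractions. The slope of log10 pairs per bp on log10 distance was -1.18 and -0.92 in Dimer and -1.27 and -0.998 in Tri-Tetra. It was -0.89 and -0.61 in Monomer and -0.94 and -0.59 in Small. Both long fractions were steeper than both short ones at each amount, with differences of -0.31 at 0.25X and -0.36 at 1X and a mean of -0.33 (exact permutation within MNase amount, p = 0.0556, the smallest possible). Wild type had a slope of -1.24 ± 0.11 (SD, n = 16, range -1.37 to -0.97). Both long fractions lay in that range at 0.25X, as did Tri-Tetra at 1X, and Monomer and Small were flatter than every wild-type column at both amounts.

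The share of same-direction pairs at 5000 to 10000 bp showed the same separation. It was 5.22% and 5.73% in Dimer and 4.11% and 4.43% in Tri-Tetra, against 9.65% and 11.2% in Monomer and 7.93% and 10.7% in Small. Wild type held 4.49% ± 0.58 (SD, n = 16, range 3.25% to 5.33%). The library without crosslinking held 33.2% in this window and had a slope of -0.09, and the library without ligation held 13.1% with a slope of -0.21, each from a single library. The part that unlinked or unligated pairs have in the short fractions was not tested.

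Pairs that span an NDR were tabulated for 6719 NDRs. Their sum was 499386 and 201754 in Dimer and 517810 and 183280 in Tri-Tetra, against 173617 and 92386 in Monomer and 143610 and 59033 in Small. As a percentage of listed pairs this was 7.74% and 5.14% in Dimer and 8.65% and 6.63% in Tri-Tetra, against 1.54% and 0.830% in Monomer and 1.06% and 0.453% in Small, a mean log2 difference of 2.96 (exact permutation within MNase amount, p = 0.0556, the smallest possible). Per 1000 same-direction pairs the order turned round. Dimer then had 800 and 901 and Tri-Tetra 679 and 756 NDR-spanning pairs, against 1680 and 1663 in Monomer and 2021 and 1920 in Small (mean log2 difference -1.22, exact permutation p = 0.0556). A pair can be counted at more than 1 NDR, so these values are not shares. The direction therefore depends on the denominator, and the comparisons by NDR below concern how each library's NDR-spanning pairs were divided among NDRs.

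Relative to TMM-scaled NDR-spanning totals, 457 of 5990 NDRs tested (7.63%) differed between long and short fractions (edgeR quasi-likelihood test, MNase amount as block, Benjamini-Hochberg adjusted p under 0.05). Of these, 98 (1.64% of those tested) were higher in the long fractions, with a median log2 change of 1.19, and 359 (5.99%) were lower, with a median of -0.80. The median over all 5990 was 0.07. Complete separation of both long from both short fractions at both amounts was met by 494 NDRs in the higher and 585 in the lower direction, which is 8.25% and 9.77% of all tested, and by 375 of the 457 called. The call count rests on the block and on each 0.25X library. It was 30 with MNase amount left out of the model and 47, 78, 94 and 109 without the 0.25X library of Monomer, Small, Tri-Tetra and Dimer, and DESeq2 called 274, of which 3 were higher. Without a 1X library it was 222 (Monomer), 244 (Dimer), 302 (Tri-Tetra) and 337 (Small). Scaled to all listed pairs, all 5990 were called higher, and scaled to same-direction pairs 1710 were called, 5 higher and 1705 lower.

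NDRs near tRNA genes were lower in the long fractions more often than NDRs as a whole, as were those near rRNA genes. Of 83 tested NDRs within 200 bp of a tRNA gene, 24 were called lower and 0 higher, with a median log2 change of -0.52 against 0.07 over all tested. Among them were positions 110795 (-1.41) and 113949 (-1.14) of chromosome XV and 519910 of chromosome IV (-1.23), each within 167 bp of a tRNA gene. Each of these calls held in 15 of 16 alternative fits that kept a scaling to NDR-spanning pairs. The call at 110795 was lost without Monomer at 0.25X (-1.10). Within 5000 bp of a tRNA gene lay 201 of the 359 NDRs called lower (56.0%) and 2 of the 98 called higher (2.04%), against 1164 of all 5990 (19.4%). The 2 called higher lie beside RSC8 and IRC5 and inside PET122 near the start of YER152C, and were named after their values were seen. The 5000 bp limit was chosen with the values in view, so these shares are a description.

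The change was nearer 0 or positive farther than 1000 bp from the tRNA gene. The median log2 change was -0.53 over 169 NDRs at 200 to 1000 bp, -0.27 over 912 at 1000 to 5000 bp and 0.00 over 967 at 5000 to 10000 bp. It was 0.18 over 1226 NDRs at 10000 to 20000 bp and 0.17 over 2633 farther away. Called-lower shares in these bins were 28.9% within 200 bp, 31.4%, 13.6%, 7.03%, 2.94% and 2.05%. The wild-type level of the NDRs had medians of 74.5 CPM (reads scaled to a common NDR-spanning total) within 200 bp, 79.4 at 200 to 1000 bp and between 92.9 and 95.6 in the other bins.

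**Figure D5:**
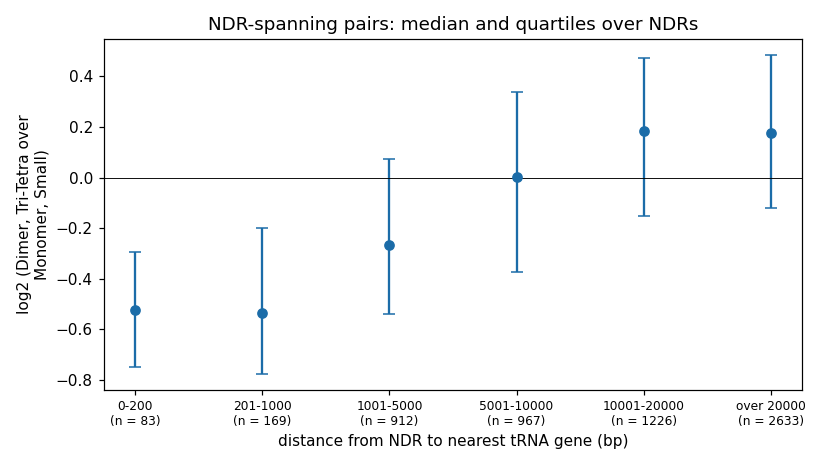
Log2 change of NDR-spanning pairs, Dimer and Tri-Tetra over Monomer and Small, as median (point) and quartiles (bars) over NDRs grouped by distance in bp to the nearest tRNA gene. The median is -0.52 and -0.53 in the 2 nearest bins, 0.00 at 5000 to 10000 bp, and 0.18 and 0.17 in the 2 farthest.

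The same pattern can be read in each library as the share of its NDR-spanning pairs that fall at NDRs within 5000 bp of a tRNA gene. With the rRNA region described next set aside, these 1251 NDRs took 23.9% and 28.5% of pairs in Dimer and 22.4% and 26.9% in Tri-Tetra. They took 29.7% and 33.4% in Monomer and 28.2% and 31.5% in Small. Both short fractions exceeded both long ones at each amount. The 14 wild-type columns held 22.1% ± 2.13 (SD, range 18.7% to 26.0%), so the long fractions lay within the wild-type range at 0.25X and above it at 1X, and all 4 short libraries lay above it. With the rRNA region kept in the total the classes overlapped, at 18.9%, 21.0%, 17.4% and 18.9% in the long libraries and 19.5%, 23.9%, 13.6% and 19.4% in the short ones.

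The region around the rRNA genes on chromosome XII, taken as 440 to 500 kb after its values were seen, holds 34 of the 6719 NDRs. It took 24.8% and 29.8% of NDR-spanning pairs in Dimer and 25.9% and 33.3% in Tri-Tetra, against 40.1% and 33.1% in Monomer and 57.1% and 43.5% in Small. The classes were apart at 0.25X and met at 1X, where Monomer lay just below Tri-Tetra. Wild type held 26.2% ± 5.30 (SD, n = 14, range 15.3% to 34.8%). Of the 32 NDRs tested here, 21 were called lower and 0 higher. The rRNA genes are listed in near-identical copies, so the assignment of pairs among copies is uncertain. Leaving the region out of the fit gave 424 calls of 5842, of which 420 were among the 457.

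NDRs called lower also lay side by side. In 326 of 359 the adjacent tested NDR was called lower too, against 39 of 98 of those called higher with a neighbour called higher. At a gap of up to 10000 bp the 359 formed 76 runs, and 33 runs of 5 or more held 270 of them. Adjacent NDRs can be spanned by the same pair, so the calls of a run are not independent. The run with most calls, 21 of 26 tested NDRs at 534979 to 576704 of chromosome VII, contains 3 tRNA genes and had a median log2 change of -0.84. At 807898 to 827404 of chromosome VII, a run with 1 tRNA gene, 13 of 15 were called lower. At 838409 to 856787 of chromosome XVI, a run with 0 tRNA genes, 13 of 14 were.

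Among the NDRs with the lowest changes, position 817304 of chromosome VII, between YGR161W-B and YGR161C-D, stood first. It held 277 and 457 CPM in Dimer and 212 and 349 CPM in Tri-Tetra, against 569 and 737 CPM in Monomer and 1080 and 1948 CPM in Small. All 4 long libraries lay below all 4 short ones, with a log2 change of -1.65 ± 0.18 (SE) and an adjusted p of 8.81e-15 in edgeR, and the call held in 16 of 16 alternative fits that kept a scaling to NDR-spanning pairs (adjusted p 5.06e-16 to 0.0226). It also differed between the short fractions, with Monomer over Small at -1.15. Whether pairs at this NDR, at the other named NDRs or in the runs above map to a single place in the genome was not tested.

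Position 451306 of chromosome XII, between the tRNA gene YNCL0009C and the rDNA transcript RDN37-1, had 2087 and 2985 CPM in Dimer and 1794 and 2925 CPM in Tri-Tetra, against 6111 and 5390 CPM in Monomer and 7538 and 6314 CPM in Small. The classes did not overlap, which naming required within each amount. The log2 change was -1.40 ± 0.26 (SE), with an adjusted p of 2.95e-05 in edgeR. The call was lost without Dimer at 0.25X (-1.28, adjusted p = 0.053) and with MNase amount left out (-1.37, adjusted p = 0.079). The NDRs at 449181 and 449561 in the same stretch changed by -1.41 each, and since they lie next to each other they can share pairs. Position 445483, between YLR152C and ACS2 (acetyl-CoA synthetase), changed by -1.40, and the NDR at the start of ACS2, at 447744, by -1.23.

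The other lowest changes lay at less-spanned NDRs. Position 435663 of chromosome V lies 89 bp from a tRNA gene and held 44.0 and 122 CPM in Dimer and 52.3 and 49.9 CPM in Tri-Tetra, against 186 and 175 CPM in Monomer and 139 and 128 CPM in Small. Its log2 change was -1.39 ± 0.28 (SE), and the call was lost without the 0.25X library of Dimer (-0.95), Monomer (-1.13) or Small (-1.16). On chromosome VII, 323966 (between SRM1, an exchange factor of the nuclear transport GTPase, and the transcription factor gene TOS8) and 325870 (inside TOS8) changed by -1.45 and -1.42. On chromosome V, 140472 at the start of YEL008W, next to the amino acid starvation regulator GCN4, changed by -1.41. The last, 1873 of chromosome XII inside YLL067C, lies near a chromosome end and changed by -1.44. These 4 had means of 14.9 to 19.4 reads per library, and each lost its call without Small at 0.25X, where the change at 1873 was -0.83. The calls at 1873 and 140472 were also lost without the 0.25X library of Tri-Tetra or of Monomer.

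The highest changes were at NDRs with few reads in the short fractions. No short library held 10 reads at any of the 10 highest. They thus reached the mean of 10 reads required of a named NDR through the long libraries. The few reads in the short fractions follow in part from this choice and are not a separate result. The NDR at 290188 of chromosome IX, between CAP2 (a subunit of the actin filament capping protein) and BCY1 (the regulatory subunit of protein kinase A), held 72.8 and 75.3 CPM in Dimer and 75.5 and 127 CPM in Tri-Tetra. It held 12.4 and 0.0 CPM in Monomer and 64.2 and 21.4 CPM in Small. The long fractions lay above the short ones at both amounts, which naming required, by little over Small at 0.25X. The log2 change was 1.99 ± 0.47 (SE, adjusted p = 0.00147 in edgeR), and the short libraries behind it held 2, 0, 6 and 1 reads. The change was 4.23 without Monomer at 0.25X and 1.65 without Monomer at 1X, and neither passed (adjusted p = 0.071 and 0.057 in edgeR).

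The NDR at 133608 of chromosome XIV, inside the formin gene BNI1, held 109 and 94.2 CPM in Dimer and 109 and 139 CPM in Tri-Tetra, against 18.6 and 70.2 CPM in Monomer and 42.8 and 21.4 CPM in Small. All 4 long libraries lay above all 4 short ones, which naming required within each amount. The log2 change was 1.62 ± 0.36 (SE, adjusted p = 6.62e-04 in edgeR). The call held in 14 of 15 alternative fits and was lost without Monomer at 0.25X (1.16). At 196194 of chromosome XIV, between ATG2 (autophagy) and ZWF1 (glucose-6-phosphate dehydrogenase), the change was 1.71 and the call held in 12 of 15, being lost without the 0.25X library of Dimer (1.54), Monomer (1.32) or Small (1.25).

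The other 7 of the 10 highest had log2 changes between 1.61 and 2.22, and lost their call in 5 to 9 of 13 or 14 alternative fits. They are the NDRs at the starts of SRL2 (2.22), YGR127W (1.91), INM1 (inositol monophosphatase, 1.89), TRI1 (1.74), the mating fusion gene FUS2 (1.73), RFC3 with MID1 (a clamp loader subunit and a calcium channel component, 1.63) and ATP10 (ATP synthase assembly, 1.61). Each had between 0 and 7 reads in every short library, and each lost its call when any 0.25X library was left out. Leaving out 1 library moved the change over 1.63 to 4.48 at SRL2, 1.19 to 3.98 at YGR127W, 1.62 to 3.95 at INM1 and 1.58 to 3.99 at TRI1. It moved over 1.38 to 1.97 at FUS2, 1.31 to 4.27 at RFC3 with MID1 and 0.81 to 4.19 at ATP10. The highest value came without Small at 0.25X at SRL2, INM1, TRI1 and RFC3, and without Small at 1X at YGR127W, FUS2 and ATP10.

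Gene groups other than tRNA genes had few NDRs called. The medians at ribosomal protein (-0.42) and stress-induced genes (-0.44) still lay near the -0.52 within 200 bp of a tRNA gene. Ribosomal protein NDRs had a median wild-type level of 51.6 CPM, against 74.5 CPM within 200 bp of a tRNA gene. Lists were read against the share of all tested NDRs called lower (5.99%) and higher (1.64%), and no list below had an NDR called higher. Of 28 NDRs at ribosomal protein genes, 2 were called lower, those of RPL26B (-0.93) and RPS18A (-1.13), with a list median of -0.42. Of 31 at ribosome biogenesis genes, 2 were lower, at RRP9 (-0.74) and the nucleolin-like NSR1 (-0.74), with a median of -0.10. Of 6 at histone genes, 1 was lower, between the H4 gene HHF1 and the H3 gene HHT1 (-0.64), with a median of -0.30. Of 10 at stress-induced genes, 1 was lower, at HSP30 (-1.02), with a median of -0.44. Of 7 at galactose- or phosphate-inducible and sugar transport genes, 1 was lower, at the glucose transporter gene HXT1 (-1.09), with a median of 0.21. None of 12 NDRs at glycolytic genes (median 0.12), 12 at targets of the heat shock factor Hsf1 (0.00) or 22 at proteasome genes (0.23) was called. Each of these called NDRs lost its call with MNase amount left out and without Monomer at 0.25X. Most also belong to the runs above. RPL26B, NSR1, HSP30, HHF1 with HHT1, and RRP9 lie in runs of 21, 13, 9, 8 and 7 called NDRs. RPS18A lies in a run of 2, and HXT1 stands alone. The calls within runs are therefore not separate from those of their neighbours. All medians stand against 0.07 over all tested NDRs, and the HXT1, HSP30, RPL26B and RPS18A NDRs lie 5788 to 55103 bp from a tRNA gene.

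Position along the gene or chromosome separated the calls less than nearness to a tRNA gene did. NDRs with 1 start codon were 39.3% of those tested, 33.7% of those higher and 30.1% of those lower, and NDRs with 2 or more were 12.6%, 15.3% and 10.6%. Those with no start codon were 48.1% of NDRs tested, 51.0% of those higher and 59.3% of those lower. Those with another NDR within 300 bp were 7.31%, 3.06% and 13.4%. NDRs with no other NDR within 1000 bp were 51.5% of those tested, 67.3% of those higher and 38.2% of those lower, so spacing differed between the directions. NDRs within 30 kb of the first or last NDR of a chromosome were 8.38% of those tested, 8.16% of those higher and 8.91% of those lower. NDRs within 200 bp of a boundary that the authors called in wild type were 34.1% of those tested, 26.5% of those higher and 19.8% of those lower. NDRs in the highest tertile of wild-type level, by the median CPM of 14 wild-type columns, made up 69.4% of those higher and 73.3% of those lower, against 33.3% of those tested. Calls also follow read number, with medians of 24.0 reads per library among those higher, 60.0 among those lower and 18.5 over all tested.

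Within a class the fractions differed at few NDRs. No NDR passed between Dimer and Tri-Tetra in edgeR, where 353 had an unadjusted p under 0.05, nor in DESeq2. Between Monomer and Small, 3 NDRs (0.0501%) were lower in Monomer in edgeR and 0 in DESeq2. They are position 817304 of chromosome VII, 402638 of chromosome X between BBC1 and MPS3 (-3.36), and 1070182 of chromosome XII inside YRF1-4 (-1.29), one of the near-identical helicase genes of chromosome ends. Across classes in edgeR, Tri-Tetra over Monomer gave 353 calls (5.89%), of which 277 were lower, and 239 of the 353 were also among the 457. Tri-Tetra over Small gave 106 (1.77%), Dimer over Monomer 69 (1.15%) and Dimer over Small 45 (0.751%). DESeq2 gave another order, with 68 for Tri-Tetra over Monomer, 109 for Tri-Tetra over Small, 9 for Dimer over Monomer and 62 for Dimer over Small. The count of 353 compared with 69 was not tested as a difference between Tri-Tetra and Dimer.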

How the data were processed

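CASAVA 1.8.2, Bowtie2 and the sacCer3 genome build are named in the submitters' processing notes, with no settings. The deposited tables hold raw counts, per the file headers, of read pairs by distance (to 10000 bp) in 4 orientations and of pairs spanning each of 6719 NDRs, and a list of wild-type boundaries with a strength score that the authors deposited, of which only the positions were used. Columns were matched to samples by name, and repeat runs of wild type were summed. In all, 48 columns of the distance tables and 53 of the NDR table were not used. The MNase amount pairs the libraries, as the labels give each fraction at 0.25X and at 1X.

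Single values of a library were compared by exact permutation within MNase amount. NDR counts were tested with edgeR 4.0.16 in R 4.3.3 (TMM, filterByExpr, additive fraction and amount, 3 residual degrees of freedom, common dispersion 0.0155), checked on simulated counts. SE is the log2 change over the root of F. CPM uses TMM-scaled totals of NDR-spanning pairs, and the table's own line of totals was not used. DESeq2 1.42.0 was the alternative. An NDR took a gene whose start codon was within 500 bp on its downstream side or 50 bp on the other, by a RefSeq gene table (assembly R64). Named NDRs are the 10 highest and 10 lowest changes among 375 called, separated at both amounts and with a mean of at least 10 reads, with up to 3 called members of each list. Members, lists and tests were chosen with earlier results of these data known. A p-value here reflects only how these samples vary.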

Additional observations from a re-analysis of the deposited data

Results flagged for a closer look

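The distance tables hold 8 further MNase columns, headed 0.5X(1) and 0.5X(2), which no comparison within an MNase amount used because the sample titles read 0.5X and 0.75X and do not say which is which. All 8 exceeded the share of same-direction pairs in the library without ligation (0.00638% of listed pairs). Their shares were 9.90% and 7.05% in Dimer and 16.5% and 9.03% in Tri-Tetra, against 0.777% and 0.538% in Monomer and 0.466% and 0.169% in Small. The first fitted crest of the ladder in these columns fell at 167 and 168 bp in Dimer, 152 and 159 bp in Tri-Tetra, 221 and 192 bp in Monomer, and 164 and 171 bp in Small.

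The second ladder peak of the long fractions lay 31.5 bp beyond that of the short fractions at 0.25X and -4.0 bp from it at 1X, with all libraries of a class on opposite sides at the 2 amounts. The difference between amounts was not tested. At 0.25X it rests on Monomer, whose peak at 262 bp lies next to the window's lower edge of 260 bp. Without that library the mean difference over both amounts was 0.75 bp, against 13.75 bp with it.

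Over 4 columns per fraction, the crest-to-trough height of Small in the column headed 0.5X(2) was 0.48 (log2), apart from the other 3, which lay between 0.62 and 0.64. In all, 36 groups of 4 were checked for such gaps, and chance gives about 1 in 20.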

How the results depend on the processing

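Scaling decided the sign by NDR. With all listed pairs as library size, all 5990 NDRs were called higher (median 3.49), including those named as lower. These then changed by 1.82, 1.99, 2.03, 2.52 (RPL26B), 2.71 (NSR1), 2.47 (ACB1/ORM1) and 2.13 (CHC1/POX1) on chromosome VII (positions 817304, 323966, 325870, 555583, 807898, 560187, 107770), by 1.99, 2.06, 2.06, 2.07, 2.07, 2.24, 2.24 and 2.51 on XII (1873, 449561, 449181, 451306, 445483, 444949, 447744, 493385), by 2.03 and 2.06 on V (140472, 435663), by 2.31 and 2.23 on IV (1359636, 519910), by 2.05, 2.33 and 2.14 on XV (110795, 113949, 978084), by 2.72 and 2.47 on XVI (802141, 7170), and by 2.34 (VIII, HXT1), 2.83 (II, HHF1/HHT1), 2.41 (III, HSP30), 2.28 (I, FLO9) and 2.51 (XIV, 7389). With same-direction pairs as library size, added after seeing the data, 1710 were called (median -0.57). Under the other alternatives, 585 values of 39 named NDRs held 0 reversals, and 148 lost the call.

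The 457 calls became 274 with DESeq2, 30 with no replicate block, 759 with the 8 further columns and no replicate block (345 shared), and 47 to 337 without 1 library. By pairs, DESeq2 called 9 for Dimer over Monomer, 68 for Tri-Tetra over Monomer and 0 for Monomer over Small, and more than edgeR for Tri-Tetra over Small (109) and Dimer over Small (62). With no replicate block, same-direction share kept its difference of 8.68 points (exact permutation p = 0.0286) and NDR-spanning pairs per listed pair 2.96 (exact permutation p = 0.0286). The exact permutation p without the block was 0.143 for reach, 0.0571 for slope and 0.314 for the share at 1000 to 2000 bp, each above its p within amounts. With the 8 further columns the differences were 9.40 points, 3.08 for NDR-spanning pairs, -0.46 for reach and -0.38 for slope. Above 500 bp the differences turned to -1.92 (same-direction), 4.58 (IN-IN) and -2.66 points (OUT-OUT). With all 4 orientations they turned to 3.31 (reach) and 0.769 points (5000 to 10000 bp), and NDR-spanning pairs per same-direction pair gave -1.22. Without 1 library, same-direction share ranged over 7.91 to 9.44 points, reach -0.50 to -0.33, slope -0.36 to -0.31, second peak 0.75 to 26.8 bp and NDR-spanning pairs per listed pair 2.75 to 3.18. Causes of these changes were not tested. Ladder peaks under wider smoothing or OUT-IN pairs were not found in all libraries. For the fitted crest, 6 group means moved by at least 1 SD of their group under a later start of the fit or in 1 orientation alone. Depth limits the short fractions, with a median of 3 reads per NDR in Small at 1X and 586 NDRs at 0 there.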

Other observations

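The line of totals that heads the NDR table, whose meaning the files do not state, relates to the pairs listed to 10000 bp differently in the 2 classes. Listed pairs came to 29.8% and 27.7% of that total in Dimer and 32.8% and 26.1% in Tri-Tetra, against 57.7% and 64.5% in Monomer and 71.5% and 78.3% in Small.

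OUT-OUT pairs were concentrated at 50 bp or less in every fraction, with 47.9% and 41.9% of OUT-OUT pairs in Dimer and 43.9% and 47.8% in Tri-Tetra, against 30.8% and 38.2% in Monomer and 40.3% and 44.5% in Small. The library without ligation held 91.0% of its OUT-OUT pairs there and the library without crosslinking 2.36%.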
